A study of Mus musculus with 6 samples.

Results

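Piezo1, Piezo2, Trpv4, Trpv2, Pkd1, Pkd2, Klf2 and Klf4 are 8 genes through which endothelial cells sense and answer fluid flow. They were chosen by name, as the probes whose RefSeq accession maps to these symbols, which gave 15 probes out of 56605 non-control probes and 8 genes out of 22907 named genes. CD45- CD31+ endothelial cells were sorted from the small intestine of female mice into CD90- vascular endothelial cells (VECs, of the blood vessels) and CD90+ lymphatic endothelial cells (LECs), and RNA of up to 10000 cells per sample was hybridized to 1-color Agilent arrays. There were 3 samples per group, labeled VEC 2, 3 and 4 and LEC 6, 7 and 8. The labels give no treatment, strain or age. Groups were taken from sample titles and source names, because the free-text description calls every sample VEC, the 3 LEC samples included. Whether the samples within a group are separate animals is not given in the sources used here, so the p-values measure only the spread between these samples, which may be technical.

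The inner wall of blood and lymphatic vessels is exposed to the shear of the moving fluid. PIEZO channels open when the membrane is stretched, TRPV4 admits calcium in response to shear, swelling and lipid messengers, and the polycystins PKD1 and PKD2 form a complex in the primary cilium, an antenna-like organelle on the cell surface. Calcium entry and junctional receptors feed a kinase cascade of MEKK3 (Map3k3), MEK5 (Map2k5) and ERK5 (Mapk7), which activates MEF2 factors, and MEF2 in turn drives Klf2 and Klf4, zinc finger transcription factors of the quiescent, flow-exposed endothelium. In lymphatic vessels, oscillating flow is known to take part in building valves.

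The arrays had 30929 to 35510 probes well above background, no saturated spots and 97 to 122 outlier spots each. The sorted populations carried their labeled identity: all 7 lymphatic markers were higher in LECs and all 7 blood endothelial markers lower (limma, adjusted p under 0.05). The summed lymphatic markers reached 2.71 to 3.37 in VECs and 1300 to 1330 in LECs, in multiples of the array's 75th percentile, and the summed blood markers 1510 to 1640 and 34.5 to 45.9. Of the pan-endothelial markers, 6 of 7 were lower in LECs (summed level 290 to 319 in VECs, 186 to 204 in LECs). Markers of other cell types were present too, and several of their sums rest on 1 bright gene. Of 12 myeloid markers, 9 were higher in LECs, 2 lower and 1 did not pass (median 1.81). Their sum was 78.8 to 84.4 in VECs and 71 to 76.5 in LECs, but 4.55 to 4.85 and 6.73 to 7.43 without Itgam. Of 5 tested fibroblast markers, 3 were higher in LECs, 1 lower and 1 did not pass (median 0.74), and the sum was 3.52 to 4.13 in VECs and 2.54 to 3.3 in LECs, but 0.899 to 1.52 and 2.18 to 2.95 without Pi16. Of 9 smooth muscle and pericyte markers, 1 (Kcnj8) was higher in LECs, 3 lower and 5 did not pass, and the sum was 32.3 to 42 in VECs and 79.1 to 85.3 in LECs, but 31.9 to 41.6 and 25.4 to 30.2 without Kcnj8. Leukocyte markers were 2 higher and 2 lower of 4 tested (sum 4.49 to 5.19 in VECs and 1.69 to 2.18 in LECs, or 1.63 to 2.1 and 1.56 to 1.97 without Lcp1). Epithelial markers were 1 higher, 2 lower and 2 not passed of 5 tested (sum 1.25 to 1.92 and 1.06 to 1.2), and erythroid markers 4 lower of 4 tested (sum 14.6 to 36.2 and 0.389 to 2.05). Because RNA was pooled from many cells, fewer cells of a type and less RNA per cell cannot be told apart in any value that follows.

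Promoter sequence was available for 7 of the 8 genes in RefSeq (GRCm38.p6), and those of Klf2, Klf4 and Trpv4 are shown because these are the members with the largest differences toward VECs. Each line holds the 250 bases before the RefSeq start, read 5′ to 3′ along the gene's own strand. Capitals mark 2 motifs, which were chosen after the member values were known and searched on both strands. They are the MEF2 motif CTANNNNTAG, with any base allowed at N, and the CACCC box that KLF factors bind. The CACCC box reads GGGTG on the other strand. Klf2 lies on the plus strand (chr8:72318812-72319061), Klf4 on the minus strand (chr4:55532476-55532725) and Trpv4 on the minus strand (chr5:114658422-114658671).
Klf2: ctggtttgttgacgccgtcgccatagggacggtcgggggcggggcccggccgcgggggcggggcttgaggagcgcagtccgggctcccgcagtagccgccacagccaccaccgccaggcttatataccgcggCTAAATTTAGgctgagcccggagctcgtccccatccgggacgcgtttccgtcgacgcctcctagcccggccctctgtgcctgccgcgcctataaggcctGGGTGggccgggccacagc
Klf4: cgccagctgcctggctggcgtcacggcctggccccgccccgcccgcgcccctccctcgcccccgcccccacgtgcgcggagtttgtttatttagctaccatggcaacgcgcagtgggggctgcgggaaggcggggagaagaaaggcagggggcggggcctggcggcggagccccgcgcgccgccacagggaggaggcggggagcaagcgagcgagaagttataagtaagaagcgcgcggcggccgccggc
Trpv4: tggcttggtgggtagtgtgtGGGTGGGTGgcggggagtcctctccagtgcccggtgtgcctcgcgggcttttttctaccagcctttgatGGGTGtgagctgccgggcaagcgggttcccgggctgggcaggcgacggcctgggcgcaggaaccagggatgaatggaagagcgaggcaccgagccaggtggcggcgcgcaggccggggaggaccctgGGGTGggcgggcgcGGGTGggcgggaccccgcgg

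The Klf2 window held 1 MEF2 match, CTAAATTTAG, from 118 to 109 bases before the start, and 1 CACCC box on the opposite strand, from 19 to 15 bases before it. The other 6 members with a window held no MEF2 match, against 3.2% of all 32851 windows of this length. Trpv4 held 5 CACCC boxes, some of which overlap each other, Piezo1 and Pkd2 1 each, and Klf4, Trpv2 and Pkd1 none, against 52% of all windows with at least 1. The windows of Klf2, Klf4, Piezo1 and Trpv4 were GC-rich, at 71.2%, 74%, 74% and 72%, those of Pkd1, Pkd2 and Trpv2 ranged from 50.4% to 67.2%, and the median over all windows was 52.4%. A match is a run of letters and was not tested as a binding site.

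Signals were compared as log2 values relative to the 75th percentile of each array, and each gene was represented by its brightest tested probe. Of the 8 genes, 1 (Piezo2) was higher in LECs, 5 (Klf2, Klf4, Trpv4, Piezo1 and Pkd2) lower, and 2 (Trpv2 and Pkd1) did not pass (limma, adjusted p under 0.05, two-sided). Among all 14968 genes tested, 34.9% were higher in LECs and 32.0% lower, so that most genes differed between the populations and a single call says little about a gene; the size of each difference is therefore given with its place among all genes. The median difference of the 8 genes was -0.34, against 0.02 over all tested genes.

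**Figure D1:**
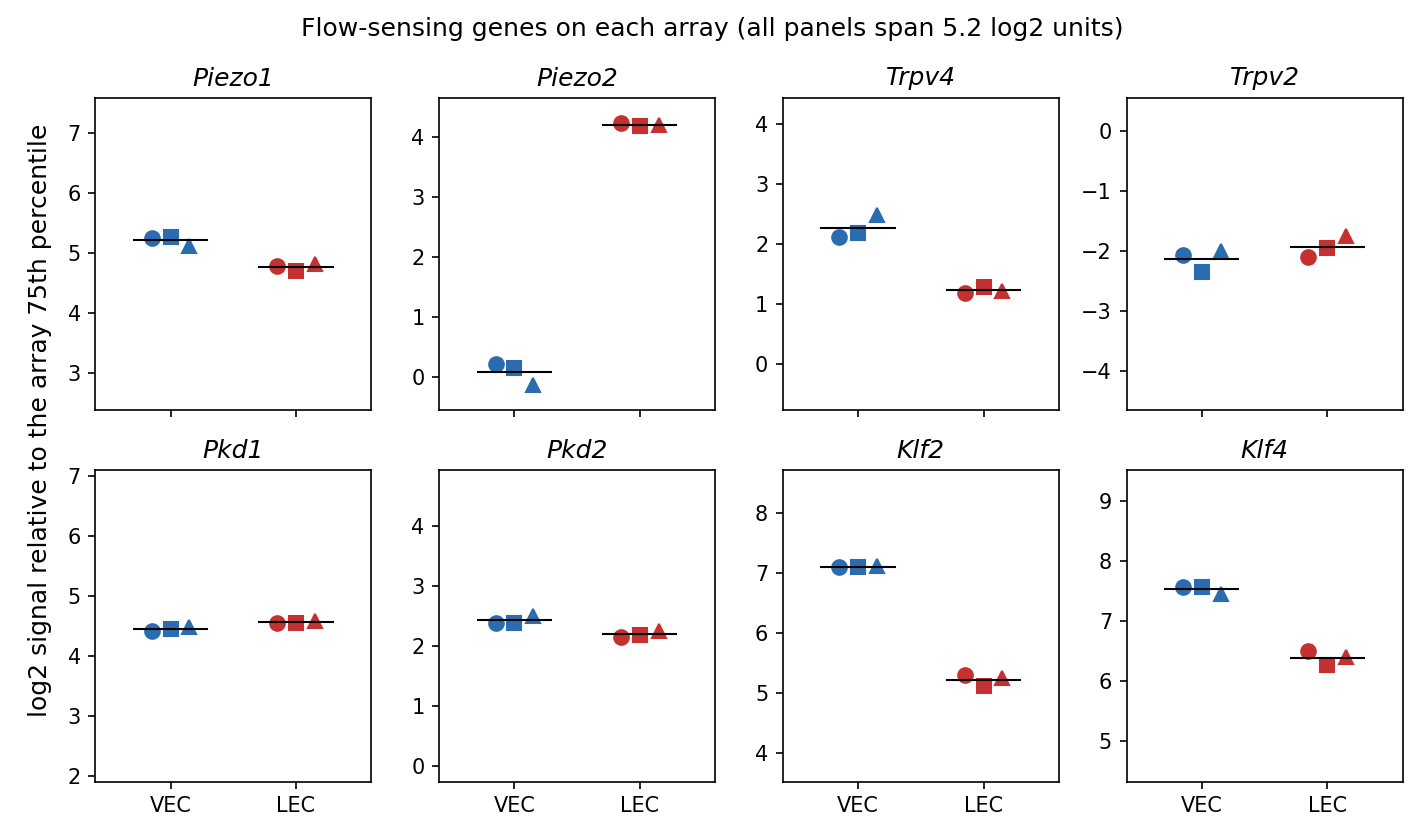
Log2 signal of the representing probe of each flow-sensing gene on each array, relative to the 75th percentile of that array, for VECs (blue; circle, square and triangle are VEC 2, 3 and 4) and LECs (red; LEC 6, 7 and 8), with the group mean as a black line and all panels spanning 5.2 log2 units. The groups are far apart for Piezo2, separate in the opposite direction for Klf2, Klf4 and Trpv4, and overlap for Trpv2.

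Piezo2, the PIEZO channel best known from touch-sensing neurons, was the member with the largest difference. The representing probe read 422, 369 and 344 intensity units in VEC 2, 3 and 4 and 8168, 6995 and 8106 in LEC 6, 7 and 8. All LEC arrays lay far above all VEC arrays. The scaled log2 mean was 0.08 ± 0.18 (SD, n = 3) in VECs and 4.21 ± 0.03 in LECs, a difference of 4.13 (SE 0.10, 95% interval 3.88 to 4.39, adjusted p = 1.3e-06, limma), or 17.5-fold. Its 2 other probes gave 3.97 and 4.10, the latter from a probe that read only 30.1 to 34.3 units in VECs. The difference ranked 279th toward LECs among 14968 genes, within the top 1.86%.

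Markers of cell types in which Piezo2 is known were checked beside this. Of 8 enteric neuron and glia markers, 4 were higher in LECs, 3 lower and 1 did not pass, with a median difference of 0.98. The higher genes included S100b and Sox10, known from enteric glia, at 3.96 and 2.09. Uchl1, Ret and Snap25, known from neurons, were lower by log2 differences of -2.76, -2.05 and -0.31. The summed level was 66.9 to 69.5 in VECs and 48.8 to 51 in LECs, and 13.1 to 13.7 and 4.65 to 5.92 without Snap25, the brightest. These marker genes were named after their values were seen. Of the enteroendocrine markers, 3 of 7 could be tested, 0 of them were higher in LECs, Neurod1 and Gcg were well above background on no array, and the summed level was 0.339 to 0.637 in VECs and 0.286 to 0.944 in LECs. The part of either cell type in the Piezo2 result was not tested.

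Piezo1, the main shear-gated PIEZO channel of endothelium, differed the other way and by far less. Its representing probe read 13842, 12780 and 13080 units in VECs and 11920, 9950 and 12395 in LECs, before scaling. On the scaled values the groups did not overlap, with means of 5.21 ± 0.08 and 4.77 ± 0.05 (SD, n = 3 each). The difference was -0.45 (SE 0.07, adjusted p = 0.0022, limma), 1.36-fold lower in LECs, and a dim second probe gave -0.65 (adjusted p = 0.0019). In the order toward VECs, Piezo1 stood at 25.6% of all genes. Without scaling between arrays the difference was -0.22 and did not pass (adjusted p = 0.16).

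Trpv4, a calcium channel that opens to shear and osmotic swelling, was lower in LECs. The representing probe read 1582, 1521 and 2110 units in VECs and 982, 931 and 1023 in LECs. No LEC array reached the lowest VEC array. The scaled means were 2.27 ± 0.19 and 1.23 ± 0.05 (SD, n = 3 each), a difference of -1.04 (SE 0.11, adjusted p = 0.00036, limma), or 2.06-fold. The second, dimmer probe gave -0.67 (adjusted p = 0.0014). Trpv2, a related channel with a part in stretch responses, was measured by 1 dim probe. It read 86.7, 65.6 and 94.3 units in VECs and 101, 98.3 and 131 in LECs. The scaled groups overlapped, and the difference of 0.20 had a 95% interval from -0.13 to 0.52 (adjusted p = 0.23, limma), which leaves room for a change in either direction.

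The polycystins differed little. Pkd1, the large receptor-like partner, read 7688, 7236 and 8404 units in VECs and 10089, 8902 and 10640 in LECs. After scaling, the difference was 0.12 (95% interval -0.03 to 0.26, adjusted p = 0.13, limma) although the groups did not overlap, and its second probe, near background, gave 0.08 (adjusted p = 0.78). Pkd2, the channel-forming partner, read 1896, 1742 and 2134 units in VECs and 1924, 1724 and 2107 in LECs. Those unscaled readings are nearly level, and the scaled difference of -0.23 (SE 0.07, adjusted p = 0.025, limma) was 1.17-fold lower in LECs. A second Pkd2 probe gave -0.29 (adjusted p = 0.016), and another stayed below that detection limit on all 6 arrays. The Pkd2 call was lost under several alternatives, among them no scaling between arrays (-0.0042, adjusted p = 0.98), normexp background correction (-0.17, adjusted p = 0.06) and the slide row as a block (-0.27, adjusted p = 0.072), and when any of VEC 2, 3, 4 or LEC 6, 7 was left out, with -0.25, -0.25, -0.19, -0.21 and -0.22 (adjusted p from 0.052 to 0.066, limma).

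Klf2, the flow-induced factor that keeps endothelium quiescent, had the largest difference toward VECs among the members. It read 49988, 45693 and 52251 units in VECs and 17094, 13203 and 16850 in LECs. The 2 groups were well separated. The scaled means were 7.11 ± 0.01 and 5.23 ± 0.10 (SD, n = 3 each), a difference of -1.88 (SE 0.07, 95% interval -2.06 to -1.71, adjusted p = 5.6e-06, limma), or 3.69-fold, which placed Klf2 1027th toward VECs of 14968 genes (6.86%). Klf4, its close relative with overlapping targets, read 68356, 63221 and 65320 units in VECs and 39073, 29196 and 37178 in LECs. Again every VEC array lay above every LEC array. The scaled difference was -1.14 (SE 0.09, adjusted p = 8.7e-05, limma), or 2.20-fold, at 11.9% of the order toward VECs.

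Klf2 and Klf4 differed between the groups in the same direction as most listed genes that are known to respond to tissue dissociation. Of all tested genes, 32.0% were lower in LECs. Of 14 such genes, 12 were lower in LECs, 1 was higher and 1 did not pass, with a median difference of -1.97. Their summed level was 2200 to 2770 in VECs and 878 to 1060 in LECs, in multiples of the 75th percentile. Nr4a1, Fos and Egr1, immediate early factors named here after their values were seen, differed by -3.05, -1.67 and -2.09. The part of this response in the Klf2 and Klf4 differences was not tested.

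**Figure D2:**
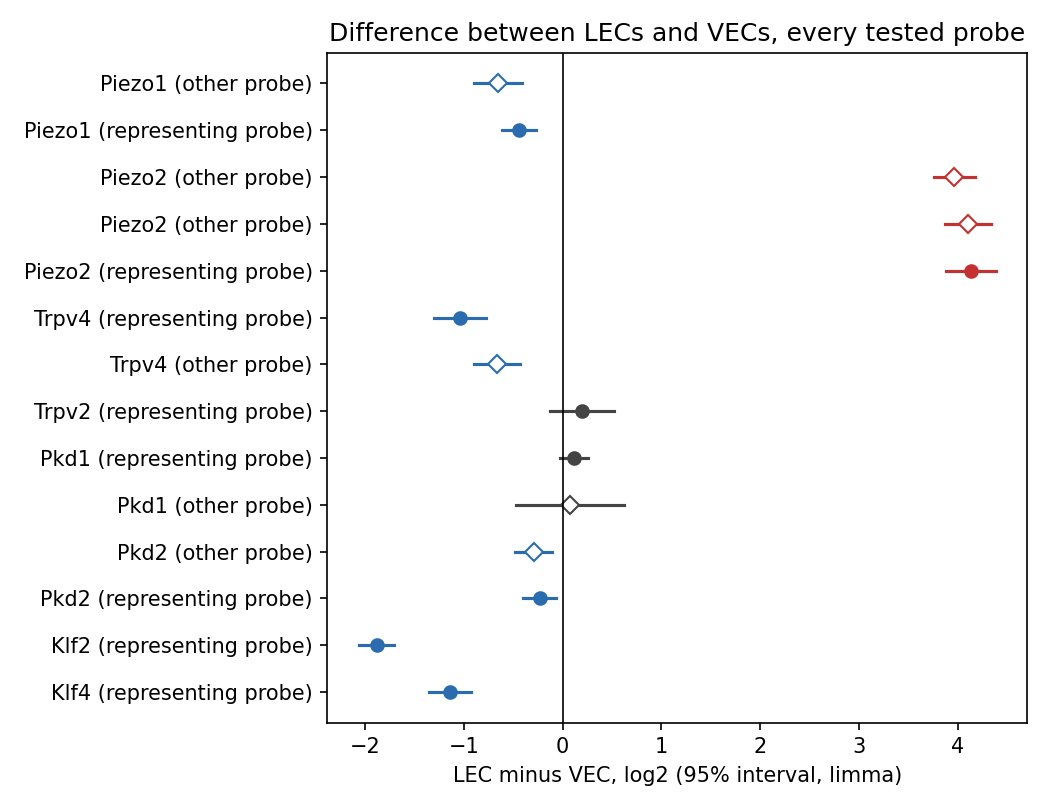
Difference between LECs and VECs on the log2 scale, with its 95% interval from limma, for each of the 14 tested probes of the 8 genes (filled circles, representing probe; open diamonds, other probes; red, higher in LECs; blue, lower; gray, adjusted p of 0.05 or more). The 3 Piezo2 probes lie between 3.97 and 4.13, and both Trpv4, both Piezo1 and the Klf2 and Klf4 probes lie below 0.

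Related genes were also set against each other within each array, where the scaling between arrays cancels. The difference between 2 probes carries their own brightness, so only its change between groups was compared. Piezo1 minus Piezo2 was 5.04, 5.11 and 5.25 in VECs and 0.55, 0.51 and 0.61 in LECs, a shift of -4.58. Trpv4 minus Trpv2 was 4.19, 4.54 and 4.48 in VECs and 3.29, 3.24 and 2.96 in LECs, a shift of -1.24. Klf2 minus Klf4 was -0.45, -0.47 and -0.32 in VECs and -1.19, -1.15 and -1.14 in LECs, a shift of -0.75, so that Klf2 was lower by 1.68-fold more than Klf4. Pkd1 minus Pkd2 was 2.02, 2.05 and 1.98 in VECs and 2.39, 2.37 and 2.34 in LECs, a shift of 0.35. In each of the 4 pairs the groups did not overlap. The two-sided exact permutation test gave p = 0.1 (0.1 after Benjamini-Hochberg over the 4 pairs), the smallest value that 3 against 3 arrays allow. The share of other gene pairs that separate in this way was not computed. Because 34.9% of all tested genes were higher in LECs and 32.0% lower, the separation is not particular to related members.

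**Figure D3:**
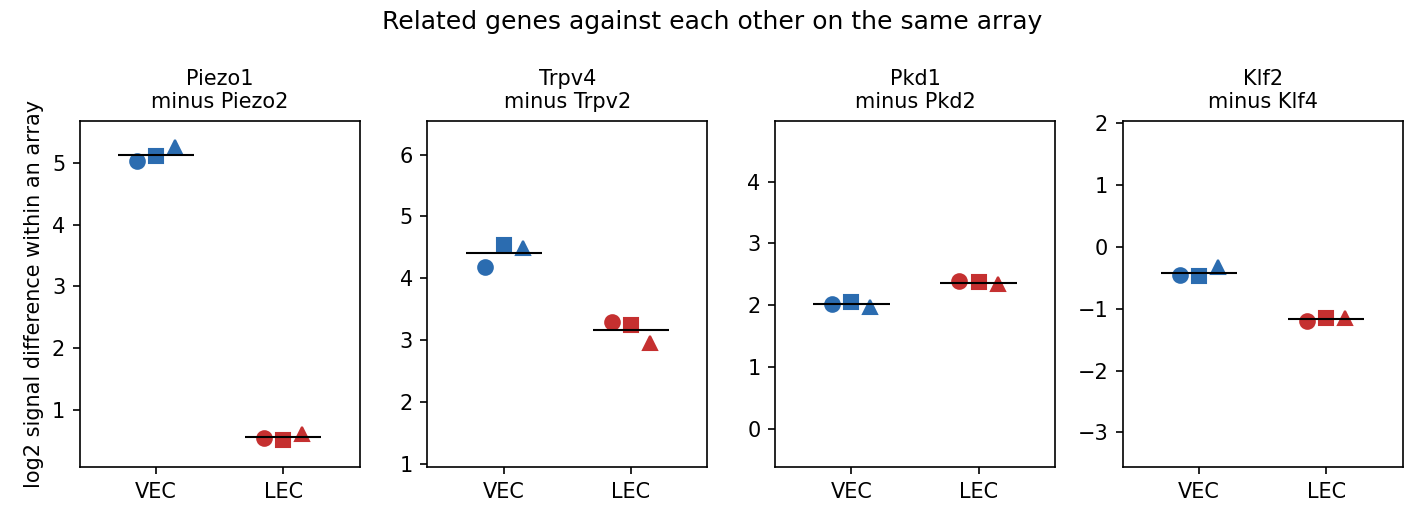
Log2 signal of one member minus that of a related member on the same array, for VECs (blue; VEC 2, 3 and 4) and LECs (red; LEC 6, 7 and 8), with group means as black lines. Piezo1 minus Piezo2 moves from a mean of 5.13 to 0.56, the largest shift of the 4 pairs.

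The genes around the members were read from lists. Over 97 tested genes of 116, without the 8 members, 31 were higher in LECs, 47 lower, and 19 missed the threshold, with a median difference of -0.23 against 0.02 over all genes. Across all 14968 tested genes, 34.9% were higher in LECs and 32.0% lower. Every list count that follows is to be read beside these shares, since most genes of any list would be called.

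Upstream of the KLF genes, the junctional flow sensors and their G proteins were mostly lower in LECs, with 8 of 10 lower and 2 higher (median -0.91). Pecam1, the adhesion molecule of the junctional flow complex, differed by -1.42, Cdh5 (VE-cadherin) by -0.65, Plxnd1, a plexin that senses shear, by -1.81, and Gnaq, a G protein alpha subunit, by -1.02. The 2 higher genes were Flt4, the receptor of lymphatic growth factors, at 3.57 and Sdc4, a membrane proteoglycan, at 2.09. Flt4 is also one of the lymphatic markers. Likewise, Pecam1 and Cdh5 are among the pan-endothelial markers, of which 6 of 7 were lower in LECs.

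In the kinase cascade that ends in MEF2, 3 of 7 genes were lower in LECs, 1 was higher and 3 did not pass (median -0.19). The lower genes were all MEF2 factors, Mef2d by 2.01-fold, Mef2a by 1.58-fold and Mef2c by 1.52-fold, with adjusted p of 0.00011, 0.00075 and 0.0074 (limma). Map3k2 was higher at 0.36. The kinases Map3k3, Map2k5 and Mapk7 measured -0.19, 0.10 and -0.17 with adjusted p of 0.093, 0.16 and 0.094 (limma). The complex of the cerebral cavernous malformation genes, which restrains MEKK3, had 2 of 6 lower and 4 not passed (median -0.06). Its lower genes were Heg1, the membrane anchor, at -2.78 (6.86-fold) and Ccm2l at -0.21. Krit1, Ccm2 and Pdcd10, the core of the complex, measured 0.29, -0.14 and 0.02 with adjusted p of 0.092, 0.1 and 0.79 (limma).

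Among 9 known target genes of KLF2 and KLF4, 5 were lower in LECs, 2 higher and 2 did not pass (median -0.34). Nos3, the endothelial nitric oxide synthase, was 9.57-fold lower and Thbd (thrombomodulin, an anticoagulant receptor) lower by a log2 difference of -1.77. Edn1 (endothelin, a vasoconstrictor that KLF2 is known to repress) was 11.8-fold lower, in the same direction as Nos3. S1pr1 and Nfe2l2 were 1.36-fold and 1.27-fold lower. Aqp1, a water channel, was 6.56-fold higher and Ptgds 1.67-fold higher. The other 13 tested KLF genes of 15 gave 8 lower, 3 higher and 2 not passed (median -0.92). Klf15 had the largest difference of them, at 3.97 toward LECs (SE 0.58, adjusted p = 0.0015, limma), followed toward LECs by Klf9 at 0.55 and Klf6 at 0.34. Toward VECs the largest were Klf8 at -2.77, well above background on 1 of 3 LEC arrays, Klf10 at -1.22 and Klf12 at -1.05.

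The calcium and ATP partners of the channels had a median of -1.51, the lowest of the pathway lists, with 11 of 14 lower in LECs and 3 higher. Plcb1, a phospholipase that makes the calcium messenger IP3, differed by -5.62 on the log2 scale, P2ry2, an ATP receptor of flow signaling, by -4.32, and Kcnj2, a flow-activated potassium channel, by -4.16. Kcnn3, a calcium-activated potassium channel, was 22.2-fold higher, P2rx4, an ATP-gated calcium channel, 3.44-fold higher, and Itpr1, an IP3 receptor, 2.36-fold higher.

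Of 23 other mechanosensitive channels and their partners, 14 could be tested, with 6 higher in LECs, 5 lower and 3 not passed (median -0.06). Pacsin3, a partner of TRPV4 at the membrane, was 22.5-fold higher in LECs. Trpc1 was well above background on 0 of 3 VEC arrays and at least 5.70-fold higher in LECs. Asic3 was well above background on 0 of 3 LEC arrays and at least 1.45-fold lower there. Trpm4 and Scnn1a were lower, by 1.89-fold and 1.45-fold. Mdfic, a PIEZO channel subunit named here after its value was seen, was 1.94-fold higher in LECs. Of 11 other TRPV and polycystin genes only 3 could be tested. Pkd2l1, a polycystin channel, was well above background on 0 of 3 VEC arrays and on all 3 LEC arrays, at least 83.2-fold higher (adjusted p = 3.6e-05, limma). Trpv6 and Pkd1l3 did not pass.

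**Figure D4:**
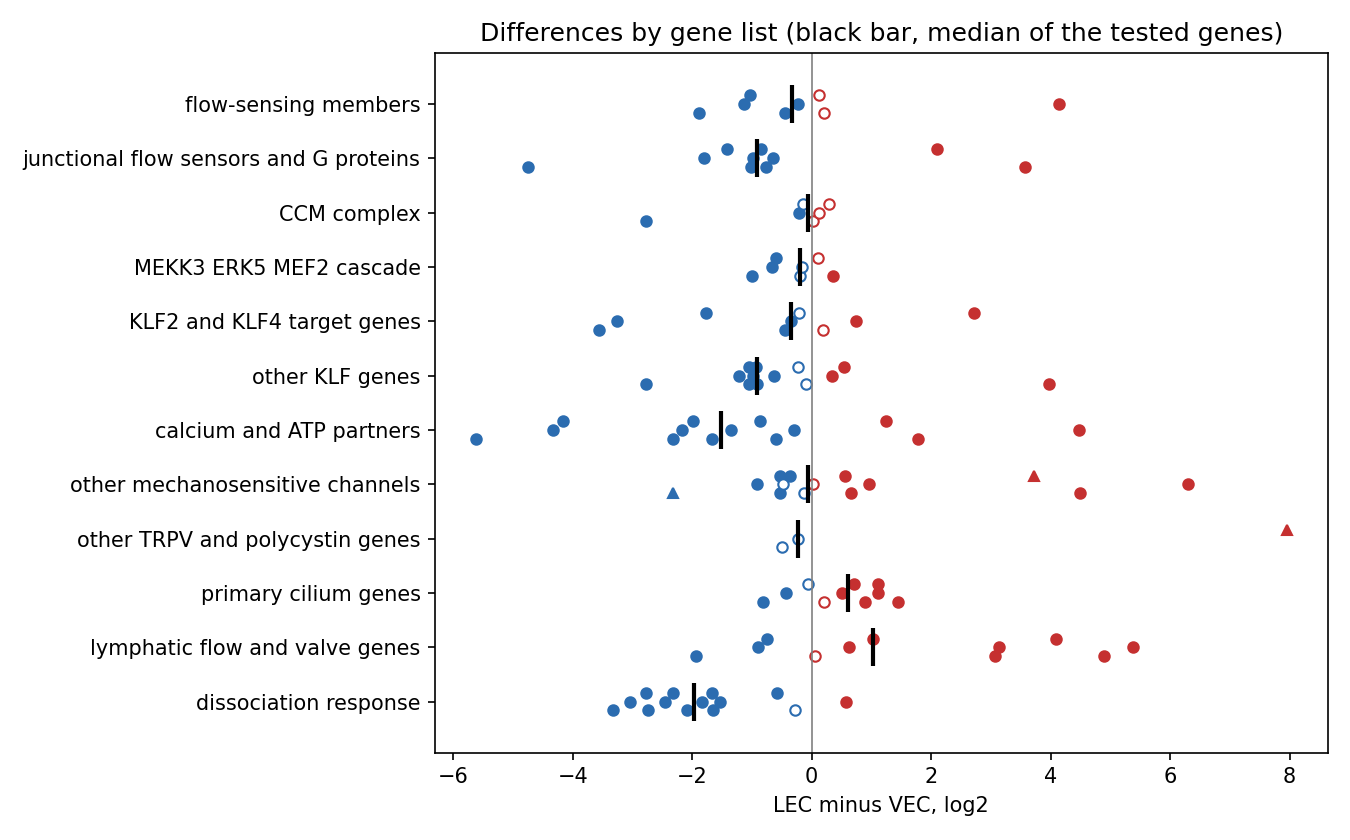
Difference between LECs and VECs on the log2 scale for each tested gene of the lists (red above 0, blue below; filled, adjusted p under 0.05 in limma; triangles, detected above background in no sample of one group, so that the plotted value is a fitted one and no measured size), with the median of each list as a black bar. The calcium and ATP partners and the dissociation response lie mostly below 0, with medians of -1.51 and -1.97, and the lymphatic flow and valve genes have the highest median of the lists drawn, at 1.03.

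The cilium, where the polycystins are known to act, gave 6 of 10 genes higher in LECs, 2 lower and 2 not passed (median 0.61). Ift57 and Ift88, which carry cargo along the cilium, differed by 1.44 and 1.11, Kif3a, a motor subunit, by 0.90, and Bbs4 and Kif3b by -0.82 and -0.43. Lymphatic flow and valve genes gave 7 of 11 higher, 3 lower and 1 not passed (median 1.03). Prox1, the lymphatic master factor and one of the lymphatic markers, was 41.3-fold higher in LECs, Celsr1 17.0-fold, Itga9 8.78-fold and the valve factor Foxc2 8.42-fold. Gata2, a factor of valve development, was 3.81-fold lower, Efnb2 1.87-fold and Gja4 1.69-fold. Gja1 was higher at 0.63 on its brightest probe, while its 2 other probes ranged from -0.38 to 0.53.

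The 3 genes whose pattern over the 6 arrays was most like that of Piezo2, out of 13299 genes well above background on all arrays, were Rad52, Susd2 and Sh3tc2, each with Pearson's r of at least 0.99988. Those most like Klf2 were Cdc42ep1 (r = 0.99998), Kctd12b and Pgp. All points share the contrast between the 2 groups, and 1176 genes reached r over 0.99 with Piezo2 and 1103 with Klf2, so these correlations mainly describe that contrast.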

How the data were processed

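Transcripts of 3 VEC and 3 LEC samples were measured on 1-color arrays, all on 1 slide read in 1 scan session. The authors deposited the background-subtracted intensity of each spot (Agilent Feature Extraction 12.0.3.1), not scaled between arrays, and a table of log2 values. The latter equaled the log2 intensity minus 1 constant per array (within 0.01), had medians from -3.19 to -3.13 and served as an alternative. Its constants, 8.37 to 8.78, lay close to the log2 of each array's 75th percentile (333 to 441 units). That alternative therefore nearly repeats the main scaling. The design names build mm9.

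From the intensities, log2 values were taken, outlier spots were removed, repeated spots averaged by probe, and each array's 75th percentile subtracted. A probe entered the test if all 3 arrays of either group marked it well above background (33776 probes, 14 of the 15 member probes) with limma 3.58.1 in R 4.3.3, two-sided, with Benjamini-Hochberg adjustment over all tested probes and a threshold of 0.05. The 95% intervals come from the same fit. Fits were tested on simulated data. Where a probe was well above background on no array of a group, the fold is a lower bound against the lowest signal well above background. The number of arrays limits the precision.

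Probes were named through RefSeq accessions (GRCm38.p6), which named 58.3% of the probes, and promoter sequences are RefSeq's. Named were all members, any gene of lists of at most 11 genes, for longer lists up to 3 genes per direction with the largest difference past the threshold, and the 3 genes most correlated with the member of the largest difference in each direction. The members and lists were chosen with earlier results of these data known. The pathway count leaves out the members, the marker lists and the dissociation list. The alternatives were normexp background correction on median signals, quantile, median or no scaling, looser and stricter filters, a floor, use of outlier spots, the methods' one-way ANOVA, an intensity trend, the deposited table, probe averages per gene, the slide row as a block, and each replicate left out. No settings of the methods' software (Gene Spring GX) are given. Items withheld for evaluation are not reported here. Marker sums without the brightest gene of a list were added after the values were seen.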

Additional observations from a re-analysis of the deposited data

How the results depend on the processing

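Over the 19 alternatives, Piezo2, Klf2, Klf4 and Trpv4 kept their direction and call, no member changed direction, and Trpv2 never passed. Leaving out each replicate gave Piezo2 4.03 to 4.20, Klf2 -1.93 to -1.83, Klf4 -1.20 to -1.08, Trpv4 -1.11 to -0.93 and Piezo1 -0.49 to -0.41, and the count of members lower in LECs was 4 or 5. Pkd1 passed with quantile scaling (0.21, adjusted p = 0.028), without scaling between arrays (0.34, adjusted p = 0.04) and in the methods' one-way test (0.12, adjusted p = 0.023), which made 2 members higher in LECs in each of these settings. Without scaling between arrays, 3 members were lower, Piezo1 and Pkd2 having lost the call, and 3026 of all tested genes were lower against 6263 higher, 67.4% of the calls against 52.1% in the scaled values. That setting moves the median of all genes to 0.24. Pkd2 also lost its call with no filter on dim probes (adjusted p = 0.088). With normexp, the within-array shifts were -4.34 for Piezo1 minus Piezo2, -1.04 for Trpv4 minus Trpv2 and 0.29 for Pkd1 minus Pkd2, and with probes averaged per gene Trpv4 minus Trpv2 was -1.05. The cause of these changes was not tested. The slide row holds 1 LEC array together with the VEC arrays, so its block rests on LEC 6. No paired analysis was made, because the groups share no replicate number and the labels give no pairing. Whether VEC and LEC samples came from the same animals is not given, and the test takes no account of it. Dim probes include that of Trpv2, the second probes of Piezo1, Pkd1 and Trpv4, and, in VECs only, the Piezo2 probe that gave 4.10. They lie within a few multiples of the lowest signal well above background, 12.1 to 25.1 units, which limits their precision.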
